A study of Mus musculus with 18 samples.

Results

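Solute carriers are the membrane proteins that move amino acids, sugars, ions, metals, vitamins, nucleosides and metabolic intermediates across the plasma membrane and the membranes of mitochondria, lysosomes, endosomes and the Golgi. Most of them work without direct ATP hydrolysis, as facilitated carriers or by coupling one solute to the gradient of another. In lymphocytes and macrophages the nutrient carriers are known to be set by activation and growth state, and several lysosomal and metal carriers are part of the phagocyte's machinery. The genes described here were protein-coding genes whose symbol begins with Slc and a digit and which had at least 50 counts in at least 3 libraries of a file. Slc2a1, Slc2a3, Slc16a1, Slc16a3, Slc11a1, Slc40a1 and Slc7a2 were left out by the rule. In the lymphocyte data 157 genes met it, of 370 Slc genes listed, and all 157 were among the 13594 genes tested. In the macrophage data 176 genes met it, of 201 listed, and all were among the 13759 tested. The lists shared 147 genes and held 186 in all. The rule reads symbols only: Slc4a1ap (an adaptor protein) and Slc7a6os (named for lying opposite Slc7a6) satisfied it in both files and are not transporters. Just inside the count rule stood Slc4a1 (50) and Slc25a26 (53) for lymphocytes and Slc24a3 (57) and Slc25a42 (72) for macrophages, by their third-highest library count. Just outside stood Slc22a21 and Slc25a43 (48 each) for lymphocytes and Slc25a53 (49) and Slc18b1 (47) for macrophages.

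Bulk RNA-seq was made from cells sorted out of livers of female C57BL/6J mice, 8 to 10 weeks of age, 20 days after intrasplenic injection of MC38, a mouse colon adenocarcinoma line that seeds liver metastases, with removal of the spleen. Lymphocytes were sorted from pools of 6 to 8 tissue samples, and no pool size was given for the macrophages; every group came from tumor-injected mice. In the lymphocyte set, 4 populations had 3 libraries each: NK cells (CD49a-CD49b+) and ILC1 (CD49a+CD49b-) from metastasis-free liver (MFL), and CD49a- NK cells and CD49a+CD49b+ NK cells from liver metastasis (LM). The titles of the LM CD49a+ libraries call them ILC1, whereas their cell type label is CD49a+ NK cells, which is used here. LM tissue was digested with enzymes and MFL tissue was pressed through a filter, so site and dissociation cannot be told apart. In the macrophage set, metastasis-associated macrophages (MAMs) sorted from MC38 metastases as F4/80high or F4/80low had 3 libraries each; the study text describes the F4/80low gate as intermediate.

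Library totals ran from 8795721 to 14386834 counts for lymphocytes and from 21278959 to 32267015 for MAMs. Values below are CPM, the counts scaled by library total with TMM factors, and a call is an adjusted p under 0.1 in edgeR's quasi-likelihood test, the threshold of the study's volcano plots; ± after a log2 fold change is its SE, which is approximate. The summed level of the NK and ILC1 label genes was 4424 to 7536 CPM over the 12 lymphocyte libraries, and all 5 Kupffer cell markers were at 0 in both LM populations. The T cell marker list, however, summed to 249 to 681 CPM in MFL ILC1, 4.98 to 14.7 CPM in MFL NK and 5.18 to 35.7 CPM in LM CD49a+ NK libraries, and nearly all of the MFL ILC1 sum was Cd3g (224, 522 and 668 CPM), while the other 6 genes were each at most 11.6 CPM. The tumor epithelium list summed to 59.3 to 95.2 CPM in MFL ILC1 and 0.295 to 2.53 in MFL NK, the neutrophil list to 107 to 155 and 0 to 1.33 CPM, and the classical monocyte list to 143 to 280.0 and 1158 to 1426 CPM. In MFL ILC1 the neutrophil sum was nearly all Mmp9 (107, 149 and 155 CPM). The tumor epithelium sum there was nearly all Cdh1 (74.7, 46.8 and 46.0 CPM) and Epcam (20.5, 12.4 and 20.1 CPM). The tissue dissociation list summed to 6821 to 15076 CPM in the LM libraries and 4599 to 7479 CPM in the MFL libraries. The median coefficient of variation of the solute carrier genes between replicates was 66.4% in LM CD49a- NK and 49.7% in LM CD49a+ NK, against 22.4% in MFL NK, 27.1% in MFL ILC1, 9.08% in F4/80high and 8.71% in F4/80low MAMs. In LM CD49a- NK cells 33 of the 157 genes had a count of 0 in at least 1 library, against 5 in MFL NK.

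The regions before the start sites of 4 genes are shown as examples. They are Slc28a2 and Slc7a5, which differed between lymphocyte populations, and Slc7a11 and Slc39a8, which differed between MAM subsets. Each is the 250 bases upstream of the canonical start site on GRCm39, read 5′ to 3′ on the strand of the gene, at chr2:122256620-122256869 (plus strand), chr8:122634434-122634683 (minus), chr3:50398064-50398313 (minus) and chr3:135531168-135531417 (plus), in that order. Capitals mark matches, on either strand, to 5 motifs: the E-box CACGTG, the C/EBP-ATF response element TGATGCAA, the antioxidant response element TGACNNNGC, the PU.1-type ETS site GAGGAAGT and the T-box site AGGTGTGA.
Slc28a2: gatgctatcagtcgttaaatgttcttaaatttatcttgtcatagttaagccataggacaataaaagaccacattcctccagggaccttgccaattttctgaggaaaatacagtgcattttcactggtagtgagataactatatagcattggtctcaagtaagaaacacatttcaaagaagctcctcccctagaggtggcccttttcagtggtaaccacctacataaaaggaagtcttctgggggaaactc
Slc7a5: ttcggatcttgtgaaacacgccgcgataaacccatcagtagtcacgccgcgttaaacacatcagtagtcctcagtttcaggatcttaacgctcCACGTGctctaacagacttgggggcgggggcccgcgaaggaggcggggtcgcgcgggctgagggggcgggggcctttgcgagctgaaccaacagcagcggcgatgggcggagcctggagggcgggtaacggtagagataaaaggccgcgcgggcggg
Slc7a11: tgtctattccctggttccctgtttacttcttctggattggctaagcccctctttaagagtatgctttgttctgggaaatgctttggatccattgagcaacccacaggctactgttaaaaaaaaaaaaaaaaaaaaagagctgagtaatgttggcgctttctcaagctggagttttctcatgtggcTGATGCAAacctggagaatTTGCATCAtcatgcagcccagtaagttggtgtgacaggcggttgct
Slc39a8: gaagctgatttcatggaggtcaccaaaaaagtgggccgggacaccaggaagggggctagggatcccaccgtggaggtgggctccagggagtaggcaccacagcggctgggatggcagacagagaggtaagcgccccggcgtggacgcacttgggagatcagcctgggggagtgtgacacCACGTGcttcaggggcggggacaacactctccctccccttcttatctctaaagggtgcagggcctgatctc

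The Slc7a11 window held TGATGCAA from -65 to -58 relative to the start site and the same letters on the opposite strand from -46 to -39. Among the corresponding windows of 21770 protein-coding genes 0.887% held this element, and among the 176 macrophage genes 4 did (2.27%): Slc7a11, Slc38a1, Slc16a13 and Slc50a1. The Slc7a5 and Slc39a8 windows each held 1 E-box, from -157 to -152 and from -71 to -66. The E-box was in 6.26% of all windows, in 14.0% of those of the 157 lymphocyte genes and in 14.2% of those of the 176 macrophage genes. Antioxidant elements were in 9.69% of all windows and in 16.6% and 17.0% of those of the solute carrier genes, ETS sites in 2.08% against 2.55% and 2.27%, and T-box sites in 0.96% against none of 157 and none of 176. The Slc28a2 window held none of these letters, nor did those of Slc37a2 and Slc4a8, which were searched too and are not printed. The windows of all protein-coding genes include genes without reads here, whereas the solute carrier genes had passed a count rule, so these sets are unlike. Such matches describe the sequence only. Nothing in these data measured binding, and the differences in share were not tested.

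The most abundant solute carriers per kilobase of exon were much the same genes in all 4 lymphocyte populations. Slc25a5, an ADP/ATP carrier of the inner mitochondrial membrane, ranked first in each, at 65.7 CPM per kb in MFL NK, 71.4 in LM CD49a- NK, 106 in LM CD49a+ NK and 70.0 in MFL ILC1. Slc25a3 (mitochondrial phosphate carrier), Slc3a2 (the heavy chain CD98 that pairs with Slc7a5 and other amino acid carriers) and Slc38a2 (a sodium-coupled glutamine and alanine importer) followed within the first 5 ranks of every population. By reads, Slc38a2 was the highest gene in each. Its values were 289, 315 and 346 CPM in MFL NK, 459, 322 and 643 in LM CD49a- NK, 609, 426 and 613 in LM CD49a+ NK and 487, 331 and 330.1 in MFL ILC1. Thus the LM libraries reached higher levels than MFL NK, although LM CD49a- NK replicate 2 lay within the MFL NK range and no comparison of Slc38a2 was called. Summed over the 157 genes, solute carrier reads were 5702 to 6040 CPM in MFL NK, 5831 to 7263 in LM CD49a- NK, 5818 to 6317 in LM CD49a+ NK and 6115 to 6286 in MFL ILC1; among these ranges only those of MFL NK and MFL ILC1 did not overlap.

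Slc28a2, the concentrative nucleoside transporter that takes up purine nucleosides with sodium, stood lowest in the CD49a+ NK cells of metastases among the 4 populations. The gene lies at chr2:122256870-122291632 on GRCm39. It measured 37.5, 56.6 and 16.3 CPM in LM CD49a+ NK, 159, 127 and 131 in LM CD49a- NK, 90.8, 112 and 129 in MFL NK and 204, 164 and 178 in MFL ILC1. The highest of the LM CD49a+ values was below the lowest value of any other population, and the 3 highest values of the 12 were those of MFL ILC1. In such bulk samples, fewer expressing cells and less RNA per cell cannot be told apart.

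Slc28a2 fell by 1.92 ± 0.34 on the log2 scale in LM CD49a+ against LM CD49a- NK cells (edgeR adjusted p = 0.0504), by 1.59 ± 0.34 against MFL NK (adjusted p = 0.0526) and by 2.30 ± 0.35 against MFL ILC1 (adjusted p = 0.000966). In contrast, MFL ILC1 minus MFL NK was 0.72 ± 0.33 (adjusted p = 0.573). The difference between these CD49a effects, LM CD49a+ minus LM CD49a- less MFL ILC1 minus MFL NK, was -2.63 ± 0.48 (adjusted p = 0.0148). It was called under every alternative analysis and every left-out library, with adjusted p at most 0.0539. These comparisons share libraries and are not independent of each other.

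The call against LM CD49a- NK was lost without LM CD49a- NK replicate 1 (-1.81, adjusted p = 0.117) or LM CD49a+ NK replicate 1 (-1.94, adjusted p = 0.168), and the call against MFL NK was lost without LM CD49a+ NK replicate 1 (-1.61, adjusted p = 0.175) or any MFL NK library (-1.72, -1.58 and -1.46, adjusted p = 0.125, 0.151 and 0.239). Fitting only the groups compared also ended them (adjusted p = 0.922 and 0.194), as did limma-voom for the first (adjusted p = 0.429). The call against MFL ILC1 was kept in all of these fits. Per kilobase, Slc28a2 ranked 8 of 157 in MFL NK, 5 in LM CD49a- NK, 4 in MFL ILC1 and 36 in LM CD49a+ NK, at 22.7, 28.6, 37.4 and 7.57 CPM per kb. The equilibrative nucleoside carriers Slc29a1 (plasma membrane) and Slc29a3 (lysosome and mitochondria) stood at 2.96 and 1.21 CPM per kb in LM CD49a+ NK and were not called in any comparison. Slc28a2 has a close genomic copy, Slc28a2b, to which the counting assigned at most 1.52 CPM in any lymphocyte library, so how reads were split between them is uncertain.

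**Figure D1:**
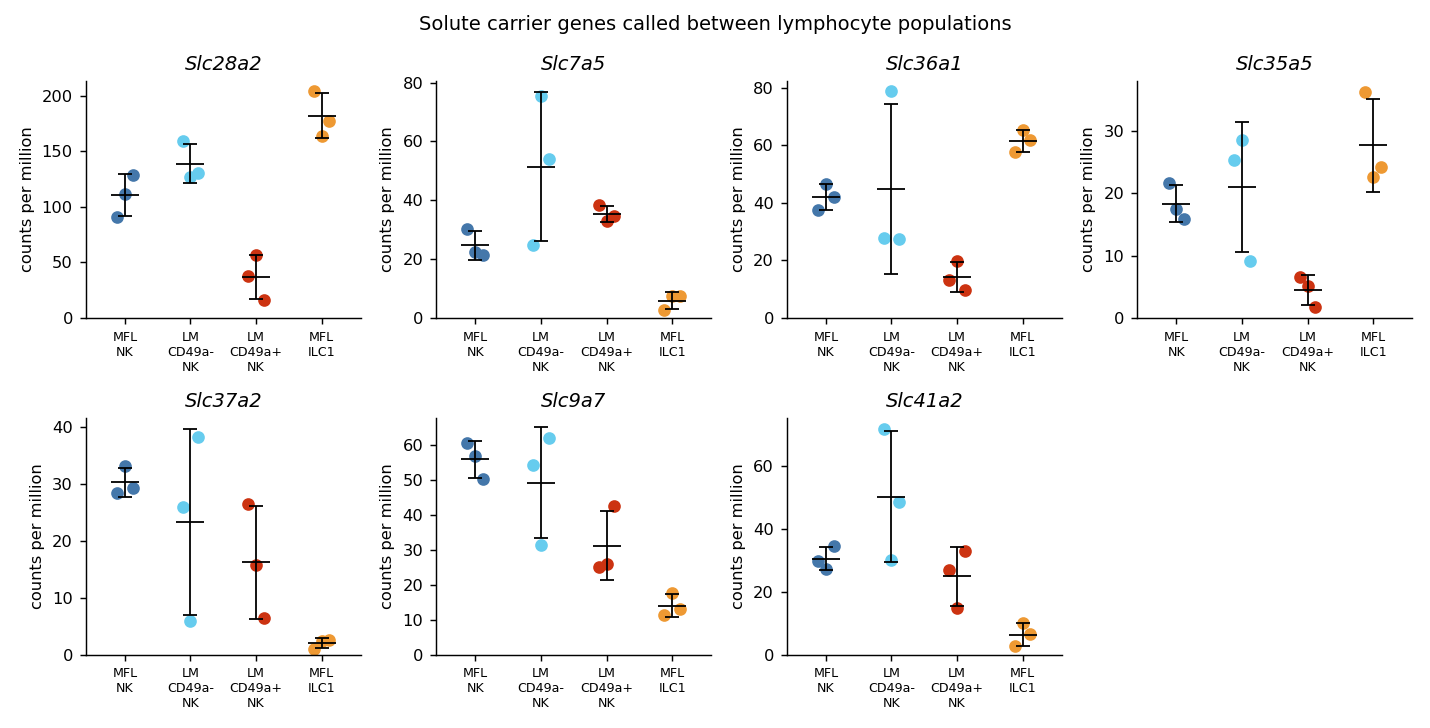
Levels (CPM, linear axis from 0) of the 7 solute carrier genes called in at least 1 pairwise comparison of lymphocyte populations, with 1 point per library, 3 libraries per population, and the black line and bars giving mean and SD. Slc28a2, Slc36a1 and Slc35a5 are lowest in LM CD49a+ NK, and Slc7a5, Slc37a2, Slc9a7 and Slc41a2 are lowest in MFL ILC1.

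Within metastases and between NK cells of both sites edgeR called no solute carrier gene other than Slc28a2, whereas DESeq2 called 13 genes for LM CD49a+ against LM CD49a- NK and 8 for LM CD49a+ NK against MFL NK. LM CD49a+ minus LM CD49a- NK gave 0 genes higher and 1 lower of 157, where 0.0662% of all genes tested were called higher and 0.0736% lower; 18 solute carrier genes (11.5%) were at an unadjusted p under 0.05, as were 11.6% of all genes. LM CD49a+ NK minus MFL NK gave 0 higher and 1 lower, against 0.427% and 0.221% of all genes, and 12 genes (7.64%) at an unadjusted p under 0.05, as were 9.74% of all genes. LM CD49a- NK minus MFL NK gave none by edgeR (0.0662% of all genes were called higher and 0.00736% lower), with 13 genes (8.28%) at an unadjusted p under 0.05, as were 6.72% of all genes; DESeq2 called 2 and limma-voom 1. The difference of CD49a effects between sites gave Slc28a2 alone, against 0.625% of all genes higher and 0.405% lower. The median log2 change of the 157 genes was -0.12, -0.11 and 0.09 in the first 3 of these comparisons, against 0.01, -0.04 and -0.09 for all genes.

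Between MFL ILC1 and MFL NK edgeR called 4 genes, all lower, against 1.38% of all genes called higher and 1.68% lower; DESeq2 called 9 solute carrier genes, a fit of the 2 groups alone 15 and limma-voom 28. Slc37a2, which exchanges glucose-6-phosphate for phosphate in the endoplasmic reticulum, was at 1.02, 2.42 and 2.56 CPM in MFL ILC1 and at 28.4, 33.2 and 29.1 CPM in MFL NK, a log2 change of -3.91 ± 0.88 (adjusted p = 0.019). Slc7a5, the LAT1 light chain that imports leucine and other large neutral amino acids, was at 2.63, 7.47 and 7.48 CPM in MFL ILC1 and at 30.4, 22.3 and 21.4 CPM in MFL NK (-2.07 ± 0.56, adjusted p = 0.0715). The groups did not overlap for either gene.

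Slc9a7, a sodium/proton exchanger of the trans-Golgi network, was 11.3, 17.7 and 13.2 CPM in MFL ILC1 against 60.5, 56.9 and 50.2 in MFL NK (-1.99 ± 0.44, adjusted p = 0.0177). Slc41a2, a magnesium transporter, was 2.63, 10.1 and 6.44 CPM against 29.6, 27.3 and 34.5 (-2.25 ± 0.60, adjusted p = 0.0617). Again the lowest MFL NK library was above the highest MFL ILC1 library. The heavy chain Slc3a2, which Slc7a5 needs to reach the membrane, was not lower: it measured 211, 177 and 186 CPM in MFL ILC1 and 182, 142 and 144 in MFL NK. In this comparison 1 of 5 tested T cell genes, 1 of 2 tumor epithelium genes and the 1 neutrophil gene tested were higher, and 2 of 4 classical monocyte genes were lower; their part in the differences was not tested.

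These calls held to different degrees. Slc37a2 lost its call only without MFL ILC1 replicate 1 (-3.60, adjusted p = 0.104) and Slc9a7 only without MFL ILC1 replicate 3 (-1.95, adjusted p = 0.107). Slc7a5 lost it without any of the 6 MFL libraries in turn (log2 changes of -2.29 to -1.72, adjusted p = 0.156 to 0.288), and Slc41a2 without any MFL NK library or MFL ILC1 replicate 1 or 3 (-2.32 to -1.88, adjusted p = 0.147 to 0.241).

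LM CD49a+ NK cells against MFL ILC1 gave the most calls in the lymphocyte set, 2 higher and 3 lower, against 2.29% of all genes higher and 1.29% lower. Slc7a5 was 38.4, 32.9 and 34.7 CPM in LM CD49a+ NK, 2.59 ± 0.58 above MFL ILC1 on the log2 scale (6.02-fold, adjusted p = 0.0194), and was called under every alternative and every left-out library. Its level in LM CD49a- NK was 24.96, 75.6 and 53.9 CPM, so the groups of LM NK cells overlapped. Slc36a1, a proton-coupled amino acid carrier of the lysosomal membrane, was 13.2, 19.9 and 9.86 CPM in LM CD49a+ NK and 57.6, 65.2 and 61.8 in MFL ILC1 (-2.10 ± 0.48, adjusted p = 0.0225), also called throughout. The other 2 calls were weaker. Slc37a2 was 26.3, 15.7 and 6.48 CPM in LM CD49a+ NK, 3.01 ± 0.85 above MFL ILC1 (adjusted p = 0.079), and its call was lost without any MFL library or without LM CD49a+ NK replicate 1 or 2 (2.47 to 3.22, adjusted p = 0.102 to 0.292). Slc35a5, of the nucleotide sugar transporter family of the Golgi, was 6.49, 5.16 and 1.79 CPM against 36.2, 22.5 and 24.2 (-2.62 ± 0.76, adjusted p = 0.0875), and its call was lost without any single library of LM CD49a+ NK, MFL NK or MFL ILC1 (-2.97 to -2.25, adjusted p up to 0.308). Fitting only the groups compared ended both calls (adjusted p = 0.195 for Slc37a2 and 0.122 for Slc35a5), and limma-voom and the fit without a low-count filter ended that of Slc35a5 (adjusted p = 0.178 and 0.102).

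Amino acid and peptide carriers other than Slc7a5 and Slc36a1 were not called by edgeR in any lymphocyte comparison. The 21 amino acid and peptide carriers had a median log2 change of 0.37 in LM CD49a+ NK and 0.34 in LM CD49a- NK against MFL NK, where all genes stood at -0.04 and -0.09, with 0 calls in either direction. Slc1a5, the glutamine carrier ASCT2, was 43.6 to 108 CPM in MFL NK and 95.5 to 119 in LM CD49a+ NK, overlapping. Slc7a1, the cationic amino acid carrier that takes up arginine, was 98.4 to 215 CPM in LM CD49a+ NK and 50.7 to 92.3 in MFL ILC1; those groups did not overlap, but the adjusted p was 0.136. Slc15a3 and Slc15a4 move histidine and peptides out of endolysosomes. Slc15a3 had counts of 0, 2 and 0 in LM CD49a+ NK and levels of 15.4, 0 and 10.2 CPM in LM CD49a- NK, and no fold is given from so few reads. Slc15a4 was 8.07 to 13.3 CPM in LM CD49a+ NK and 29.8 to 33.0 in LM CD49a- NK, without overlap, and was not called (adjusted p = 0.377).

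The 33 mitochondrial carriers gave no call in any lymphocyte comparison, nor did the 2 genes that are not transporters. Among the 24 metal carriers, 23 ion and pH carriers and 13 sugar and monocarboxylate carriers the calls were those of Slc41a2, Slc9a7 and Slc37a2 given above. Among regulators of transporter genes fixed as a list of 24 (such as Myc, Atf4, Hif1a and the sestrins), 1 was higher in LM CD49a+ NK than in MFL NK, 1 was higher in MFL ILC1 than in MFL NK and 2 were higher in LM CD49a+ NK than in MFL ILC1, with 0 lower. None of the 12 tested amino acid response genes was called in any of these comparisons. Of the 27 ATP-binding cassette (ABC) transporters tested, 2 were higher in MFL ILC1 than in MFL NK, and 2 were higher and 2 lower in LM CD49a+ NK than in MFL ILC1. In the difference of CD49a effects between sites 1 was lower. Of all genes, 0.427% were called higher and 0.221% lower in LM CD49a+ NK against MFL NK. The shares were 1.38% and 1.68% for MFL ILC1 against MFL NK, and 2.29% and 1.29% for LM CD49a+ NK against MFL ILC1. For the difference between sites they were 0.625% and 0.405%, and no list was tested.

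**Figure D2:**
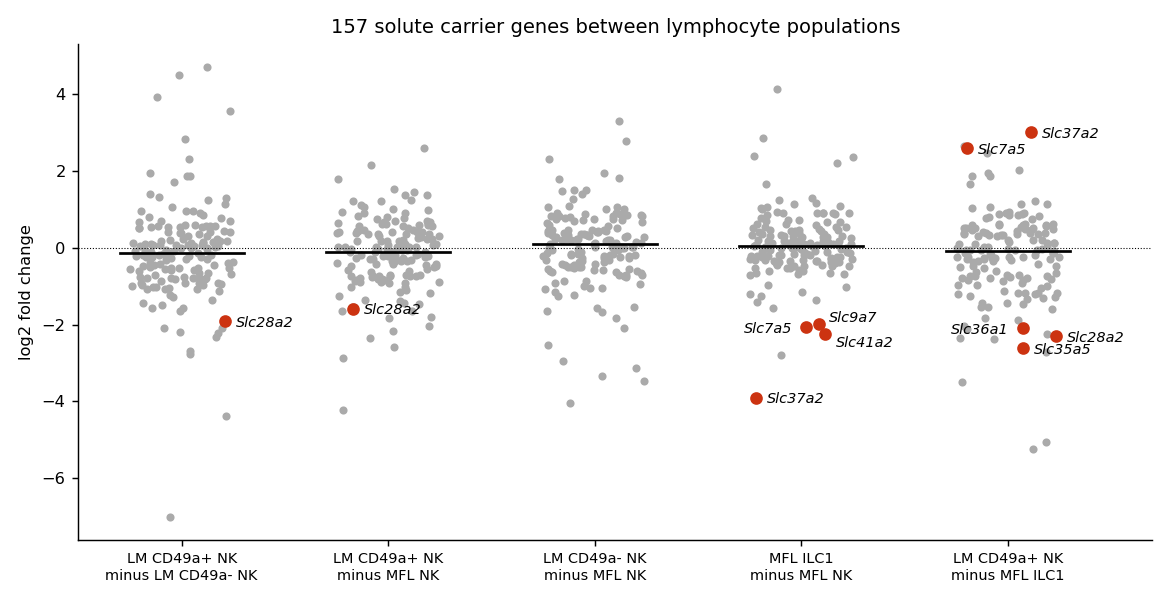
Log2 fold changes of the 157 solute carrier genes in the 5 pairwise comparisons of lymphocyte populations; grey points were not called, red points were (adjusted p under 0.1), black lines are medians. Comparisons with MFL ILC1 hold 4 and 5 called genes, those among NK populations 0 or 1.

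MAM subsets differed far more. Of 176 solute carrier genes, 57 were higher and 52 lower in F4/80high than in F4/80low MAMs, which is 32.4% and 29.5% of them, against 27.8% of all genes higher and 27.1% lower. The share of called genes was therefore near that of the whole table. Counts by class or family below are to be read beside these shares, and no class or family was tested. Their median log2 change was -0.01, against 0.01 for all genes. Among the 109 called genes 105 had groups that did not overlap. No share over all genes is given beside that count, so it is not read as a trait of the solute carriers. Of the 176 genes, 32 were called with a change of more than 1 on the log2 scale, 14 higher and 18 lower, where 22.0% of all genes were. The largest changes were losses in F4/80high MAMs of genes of low abundance, as the plot of change against level shows. Slc8a2, Slc4a8, Slc52a3, Slc9b2, Slc22a23, Slc4a11 and Slc7a11 met the count rule only through the F4/80low libraries, where they are high. Slc22a23, for example, had counts of 4, 8 and 22 in F4/80high and 297, 187 and 76 in F4/80low. Slc24a3 met the rule only through F4/80high. Changes of genes selected in this way are not read as a trait of the solute carriers.

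**Figure D3:**
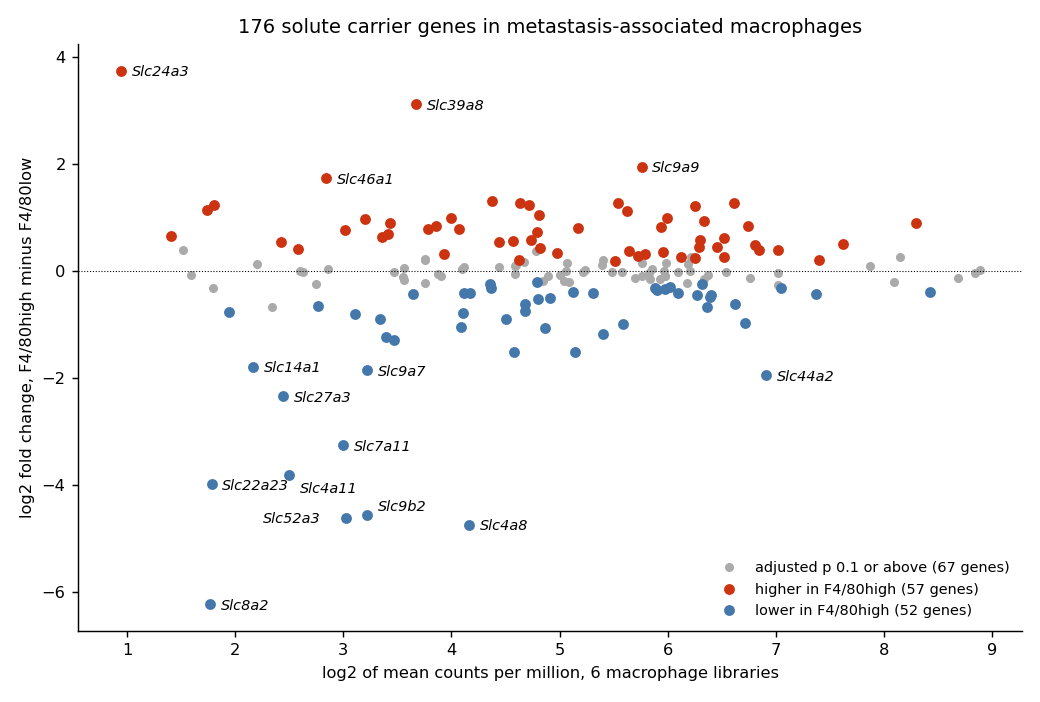
Log2 fold change of the 176 solute carrier genes between F4/80high and F4/80low MAMs against the log2 of their mean CPM over the 6 libraries; red, higher in F4/80high (57), blue, lower (52), grey, not called (67). Genes with changes beyond -3 lie below the middle of the abundance range, while Slc44a2 (-1.95) is an abundant gene that fell.

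The libraries also differed in lists of markers of other cells. The macrophage list summed to 19678 to 25873 CPM in F4/80high and 10332 to 12986 CPM in F4/80low MAMs (7 of 10 genes higher). The dendritic cell list summed to 10.3 to 16.9 CPM in F4/80high and 376 to 670 CPM in F4/80low (6 of 7 lower), the classical monocyte list to 452 to 574 and 2062 to 2285 CPM (5 of 5 lower), the neutrophil list to 80.4 to 115 and 364 to 605 CPM (6 of 7 lower), and the 2 tumor epithelium genes listed to 8.30 to 11.8 and 197 to 281 CPM (both lower). Most of the F4/80low neutrophil sum was Mmp9 (427, 273 and 358 CPM). Csf3r overlapped, at 66.8, 84.1 and 74.8 CPM in F4/80low and 80.4, 73.3 and 103 CPM in F4/80high. The 2 tumor epithelium genes were Cdh1 (247, 264 and 189 CPM in F4/80low) and Epcam (16.7, 17.2 and 7.70 CPM), without any keratin. These sums therefore do not by themselves identify neutrophils or tumor cells. No dendritic cell, monocyte or neutrophil marker in the table was at 0 in all 3 libraries of a subset, although Ngp, S100a8, S100a9 and Cxcr2 were each at 0 in 1 or 2 F4/80high libraries. Tissue dissociation genes were lower in F4/80high, 11 of 13. These lists move with every gene described below as lower in F4/80high; their part in those differences was not tested.

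Ion and pH carriers showed the largest losses. Slc8a2, a plasma membrane sodium/calcium exchanger best known from nerve cells, was 0.0901, 0.0354 and 0.130 CPM in F4/80high and 7.52, 7.72 and 4.93 CPM in F4/80low (-6.22 ± 0.40, adjusted p = 1.14e-05). Its F4/80high values rest on very few reads per library, so the size of this change is uncertain. Slc4a8, a sodium-driven chloride/bicarbonate exchanger, was 1.71, 0.850 and 1.36 CPM against 51.3, 33.3 and 18.9 (-4.74 ± 0.42, adjusted p = 5.29e-05), with a wide spread among the F4/80low libraries. Slc9b2, a sodium/proton exchanger, was 0.946, 0.602 and 0.746 CPM against 25.3, 13.7 and 14.6 (-4.56 ± 0.32, adjusted p = 1.59e-05). Slc4a11, of the bicarbonate transporter family, was 1.08, 0.673 and 0.519 CPM against 12.8, 6.90 and 11.8 (-3.81 ± 0.35, adjusted p = 6.41e-05). For all 4 genes the lowest F4/80low library was several times the highest F4/80high library. In the other direction, Slc9a9, an endosomal sodium/proton exchanger, was 79.9, 67.2 and 111 CPM in F4/80high and 22.6, 24.7 and 19.7 in F4/80low (1.94 ± 0.18, adjusted p = 8.04e-05). Slc12a7, a potassium/chloride cotransporter, was 129.6, 129 and 157 CPM against 56.6, 55.2 and 59.8 (1.27 ± 0.10, adjusted p = 3.04e-05), whereas Slc12a2, the sodium/potassium/chloride importer, was lower (-1.04 ± 0.27, adjusted p = 0.0128). Slc9a7, which was low in MFL ILC1 among the lymphocytes, was lower in F4/80high MAMs (-1.85 ± 0.18, adjusted p = 9.23e-05).

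Of the 28 ion and pH carriers 7 were higher, 11 lower and 10 not called, where 27.8% of all genes were higher and 27.1% lower. Of the 5 members of family 4, the bicarbonate carriers and relatives, 4 were lower and none higher, and the family was not tested. The adaptor gene Slc4a1ap, whose adjusted p rounds to the threshold, is 1 of the 4. Slc13a3, a sodium-coupled dicarboxylate importer, was 31.8, 19.5 and 37.3 CPM against 12.2, 11.7 and 11.8 (1.31 ± 0.21, adjusted p = 0.00141). Slc24a3, a sodium/potassium/calcium exchanger just inside the count rule, was 2.57, 4.36 and 3.83 CPM in F4/80high and 0.295, 0.239 and 0.259 in F4/80low (3.74 ± 0.34, adjusted p = 6.02e-05). Slc8a1, the more abundant relative of Slc8a2, was not called (-0.15 ± 0.13, adjusted p = 0.369).

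Among amino acid and peptide carriers, 9 were higher in F4/80high MAMs, 9 lower and 9 not called. The gene with the largest change was Slc7a11, the cystine/glutamate exchanger that feeds glutathione synthesis, whose upstream window holds the pair of TGATGCAA elements printed above. It was 1.98, 1.35 and 1.23 CPM in F4/80high and 15.9, 9.63 and 17.7 CPM in F4/80low (-3.26 ± 0.29, adjusted p = 5.88e-05). The glutamine importer Slc1a5 was 69.7, 75.4 and 67.3 CPM against 143, 143 and 132 (-0.98 ± 0.08, adjusted p = 4.4e-05), and Slc38a2 was 140.1, 145 and 139.7 CPM against 197, 209 and 165 (-0.42 ± 0.10, adjusted p = 0.00868). The F4/80low libraries were the higher ones in each case, without overlap. Slc38a1, another glutamine importer, and Slc38a9, a lysosomal arginine-sensing carrier, were lower too (-0.32 ± 0.10 and -0.61 ± 0.13).

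Other amino acid carriers went the opposite way. Slc7a8, the LAT2 light chain that exchanges neutral amino acids, was 386, 429 and 418 CPM in F4/80high and 169, 216 and 275 in F4/80low (0.90 ± 0.16, adjusted p = 0.00235). Slc38a6 was 34.6, 32.8 and 37.7 CPM against 14.3, 13.9 and 15.3 (1.27 ± 0.09, adjusted p = 2.15e-05), and Slc38a7, a lysosomal glutamine exporter, was 65.7, 69.2 and 68.4 against 27.3, 33.6 and 32.3 (1.13 ± 0.10, adjusted p = 4.88e-05). All 6 measured members of family 38 were called, 3 in each direction, and the family was not tested. The LAT1 pair did not pass: Slc7a5 was 62.9, 81.1 and 55.8 CPM against 86.8, 86.0 and 61.7 (-0.23 ± 0.17, adjusted p = 0.296), and Slc3a2 was 322, 322 and 287 against 277, 208 and 289.6 (0.27 ± 0.13, adjusted p = 0.132). Slc6a6, the taurine importer and by reads the highest solute carrier of both subsets, was 474, 392 and 563 CPM against 463, 473 and 476 (0.02 ± 0.13, adjusted p = 0.925). Of 15 amino acid response genes, which include serine synthesis enzymes and tRNA synthetases, 7 were higher in F4/80high and 0 lower, beside 27.8% and 27.1% of all genes; the list itself was not tested.

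Organic solute and vitamin carriers included further genes that were low in F4/80high libraries. Slc52a3, a riboflavin importer, was 0.991, 0.531 and 0.454 CPM in F4/80high and 14.7, 17.7 and 14.5 CPM in F4/80low (-4.60 ± 0.27, adjusted p = 7.65e-06). Slc22a23, an orphan of the organic ion transporter family, was 0.180, 0.283 and 0.714 CPM against 9.75, 6.39 and 3.29 (-3.98 ± 0.55, adjusted p = 0.000604). Slc44a2, a choline transporter-like protein, differed at a much higher level, 50.6, 46.9 and 51.1 CPM against 189.6, 197 and 188 (-1.95 ± 0.08, adjusted p = 1.81e-06). Slc27a3, of the fatty acid transport proteins, was lower (-2.34 ± 0.30), but its relative Slc27a1 was higher (0.98 ± 0.17). Slc46a1, the proton-coupled folate and heme carrier, was 11.3, 10.3 and 11.4 CPM against 3.25, 3.14 and 3.59 (1.72 ± 0.15, adjusted p = 4.85e-05), and the lysosomal Slc46a3 was 12.2, 9.74 and 15.3 against 38.4, 42.4 and 25.7 (-1.52 ± 0.22, adjusted p = 0.000699). These members of families 27 and 46 therefore moved in opposite directions. In all, 8 of the 23 genes of this class were higher, 8 lower and 7 not called.

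Nucleoside carriers rose or did not pass. Slc28a2, the gene with the lymphocyte difference described above, was 37.3, 33.2 and 42.5 CPM in F4/80high and 14.8, 14.96 and 25.1 in F4/80low (1.05 ± 0.21, adjusted p = 0.00355). Slc29a1 was 108, 115 and 109 CPM against 68.1, 71.8 and 78.1 (0.61 ± 0.08, adjusted p = 0.000526). Slc29a3, which clears nucleosides from lysosomes, was far more abundant, at 255, 209.6 and 295 CPM against 302, 317 and 258, and was not called (adjusted p = 0.245). Per kilobase, Slc29a3 stood at 35.6 and 41.1 CPM per kb in F4/80high and F4/80low, Slc29a1 at 14.3 and 9.41 and Slc28a2 at 7.75 and 3.76. The macrophage and lymphocyte libraries were made with different kits and were not tested against each other.

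**Figure D4:**
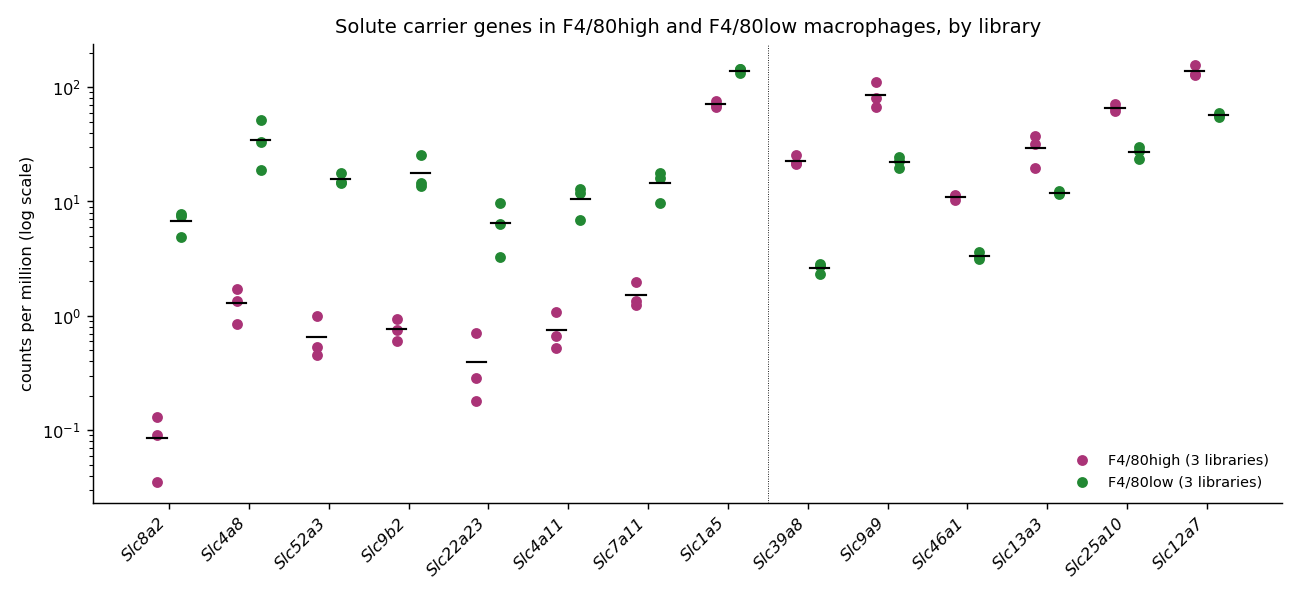
CPM (log axis) of 14 solute carrier genes in each of 3 F4/80high (purple) and 3 F4/80low (green) MAM libraries; black lines are group means, and the dotted line separates genes lower in F4/80high (left) from genes higher (right). No gene shown has overlapping groups, and the fall of Slc8a2 and Slc4a8 spans more than a factor of 10.

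Of the 25 metal carriers 9 were higher in F4/80high MAMs, 5 lower and 11 not called, with a median log2 change of -0.01. Slc39a8, the ZIP8 importer of zinc and manganese, was 21.3, 21.9 and 25.3 CPM in F4/80high and 2.82, 2.73 and 2.33 CPM in F4/80low (3.11 ± 0.14, adjusted p = 2.74e-06), with the smallest SE among called genes that changed by more than 2 on the log2 scale. Its relative Slc39a14, which also carries iron, was 119, 148 and 144 CPM against 66.6, 77.0 and 86.9 (0.84 ± 0.12, adjusted p = 0.000862). Of the 10 measured genes of family 39, 4 were higher and 0 lower, beside 27.8% and 27.1% of all genes, and the family was not tested. Slc11a2, the divalent metal transporter DMT1, was 43.3, 47.3 and 46.8 CPM against 25.1, 25.8 and 27.5 (0.81 ± 0.08, adjusted p = 0.00012). In contrast, Slc30a4, which loads zinc into vesicles, was 16.1, 23.3 and 15.7 against 64.5, 55.5 and 37.2 (-1.51 ± 0.22, adjusted p = 0.000844). The zinc-binding metallothioneins Mt1 and Mt2 were not called (adjusted p = 0.703 and 0.538), and Mt3, at 0 CPM in every F4/80high library and at 2.20, 0.683 and 0.822 CPM in F4/80low, was called lower (adjusted p = 0.002).

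The 35 mitochondrial carriers gave 9 higher, 11 lower and 15 not called, and their changes were small. The most abundant of them, Slc25a5, was 465, 484 and 411 CPM in F4/80high and 487, 445 and 462 in F4/80low (-0.04 ± 0.09, adjusted p = 0.781), and Slc25a3 was 411, 408 and 358 against 469.7, 391 and 431 (adjusted p = 0.31). Slc25a4, the other ADP/ATP carrier measured, was 131, 145 and 116 CPM against 105, 88.2 and 86.8 (0.49 ± 0.11, adjusted p = 0.0073). Slc25a10, the dicarboxylate carrier, had the largest rise at 65.2, 61.6 and 71.3 CPM against 30.2, 27.8 and 23.7 (1.28 ± 0.11, adjusted p = 4.86e-05). Slc25a38, which brings in glycine for heme synthesis, fell by 1.07 ± 0.10 on the log2 scale, and Slc25a20, the carnitine/acylcarnitine carrier of fatty acid oxidation, fell by 0.90 ± 0.14.

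Of the 15 genes in families classed as sugar and monocarboxylate carriers, 8 were higher, 3 lower and 4 not called, with a median log2 change of 0.39. The class goes by family, so it also holds genes of other solutes, such as the urate carrier Slc2a9. Of all genes 27.8% were higher, and the class itself was not tested. Slc16a6 was 111, 105 and 102 CPM in F4/80high against 55.3, 57.3 and 54.6 (0.93 ± 0.08, adjusted p = 3.88e-05). Slc45a4 was 100.2, 98.9 and 119.6 CPM against 42.5, 49.7 and 45.8 (1.21 ± 0.10, adjusted p = 5.09e-05). Slc2a8, an intracellular hexose carrier, and Slc2a9, a urate carrier, rose by 0.99 ± 0.14 and 0.96 ± 0.23. Slc37a2, the glucose-6-phosphate exchanger that was low in MFL ILC1, was 149, 148 and 147 CPM against 109, 106 and 123 (0.39 ± 0.08, adjusted p = 0.00518), while its relative Slc37a1 fell by 1.23 ± 0.18. Among the 21 nucleotide sugar transporters and relatives, which supply the Golgi and endoplasmic reticulum, 7 were higher, 4 lower and 10 not called, and only Slc35g1 changed by more than 1 on the log2 scale (1.24 ± 0.24).

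**Figure D5:**
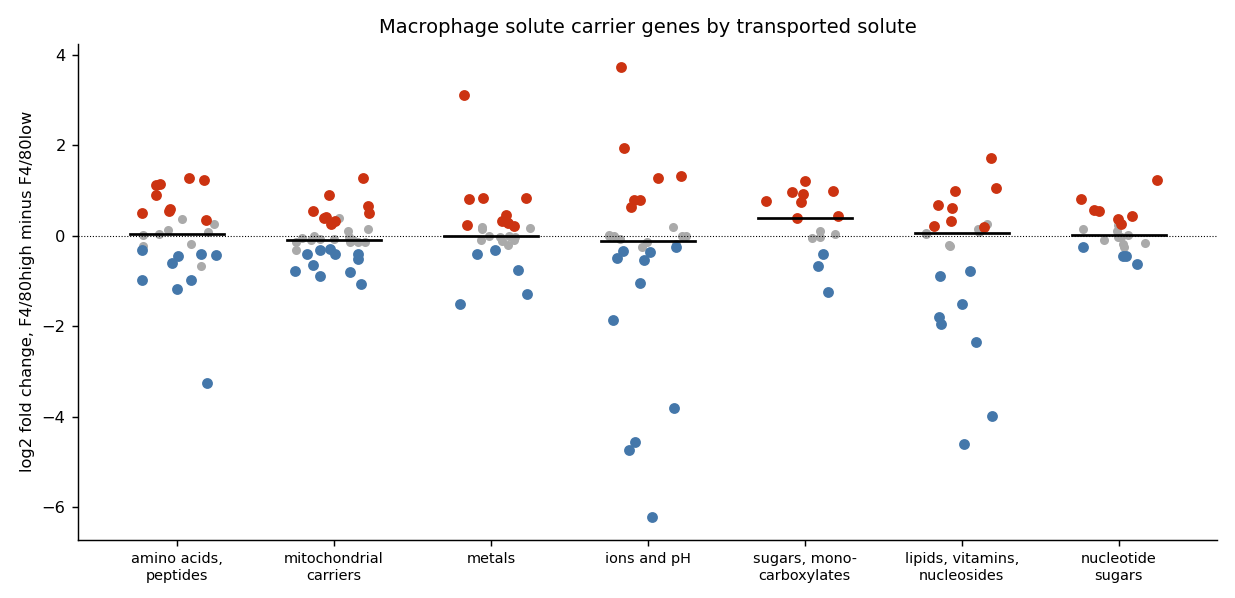
Log2 fold changes between F4/80high and F4/80low MAMs of the solute carrier genes that encode transporters, by the class of solute of their family; red, higher, blue, lower, grey, not called, black lines, class medians. The families classed as sugar and monocarboxylate carriers have the highest median (0.39), and the changes beyond -3 are of families classed as ion, amino acid and organic solute carriers.

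Other transporter families were read in the same way. Of 31 ABC transporters 13 were higher and 8 lower in F4/80high MAMs, and of 4 organic anion carriers of the Slco family 1 was higher and 3 lower, beside 27.8% and 27.1% of all genes. Of 23 regulators of transporter genes tested, 7 were higher and 11 lower, beside the same shares of all genes. Atf4, whose product binds C/EBP-ATF elements, was 194, 181 and 141 CPM in F4/80high and 251, 164 and 218 in F4/80low, overlapping, and was not called (-0.30 ± 0.17, adjusted p = 0.193). The part of Atf4 or any other regulator in the solute carrier differences was not tested.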

How the data were processed

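Lymphocyte libraries (SMARTer Stranded Total RNA-Seq Pico kit) and macrophage libraries (poly(A) selection, Nextflex Rapid Directional kit) were deposited as separate tables and were never tested against each other. Their values are estimated counts per gene, already whole numbers as deposited: for the lymphocytes the authors trimmed reads with Trim Galore and quantified them with Salmon 1.5.0 against GENCODE transcripts of GRCm39, summed to genes with tximport; for the macrophages the submitters' processing notes name Trim Galore, Salmon 1.10.0 and DESeq2 1.40.2, and how the counts were summed to genes is not given in the sources used here. The macrophage table lists no gene with a total under 37 counts. Library totals are given in the text, and all columns were mapped to labelled samples.

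From these counts, edgeR 4.0.16 (R 4.3.3) was run with TMM factors, filterByExpr, 1 quasi-likelihood fit over the 12 lymphocyte libraries and 1 over the 6 macrophage libraries; a gene was called where its Benjamini-Hochberg adjusted p over all genes tested was under 0.1. SE is the log2 fold change divided by the square root of F. Gene classes follow the known solute of each Slc family, so a gene with another solute stays in the class of its family. The members and lists were chosen with earlier results of these data known. Genes were named by a fixed rule (per comparison and direction, up to 6 called genes of the largest change with at least 5 CPM in the higher group and no overlap, plus a fixed list of carriers and the most abundant genes); further examples within classes were chosen after their values were seen. The study describes the lymphocyte pools as collected in 3 independent sorts; for the macrophages no source says whether libraries were separate collections, so those p-values measure the spread between libraries, which may be technical. Alternatives were DESeq2 1.42.0, limma-voom (limma 3.58.1), RLE normalization, no filter, 2-group fits, a replicate block, a stricter threshold, other count rules and leaving out each library. Scripts were tested on simulated data.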

Additional observations from a re-analysis of the deposited data

Results flagged for a closer look

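Slc28a2 stood out because its difference by CD49a was not the same at the sites compared. LM CD49a+ minus LM CD49a- NK was -1.92 and MFL ILC1 minus MFL NK was 0.72 on the log2 scale, the latter not called (edgeR adjusted p = 0.573), and the difference between them was -2.63 ± 0.48 (edgeR interaction term, adjusted p = 0.0148). The CD49a+ cells compared are NK cells in metastases and ILC1 in metastasis-free liver, and tissue dissociation differed between sites, so cell type, site and dissociation cannot be told apart in this difference.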

How the results depend on the processing

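In the order LM CD49a+ against LM CD49a- NK, LM CD49a+ against MFL NK, LM CD49a- against MFL NK, MFL ILC1 against MFL NK, LM CD49a+ against MFL ILC1 and the interaction, edgeR called 1, 1, 0, 4, 5 and 1 solute carrier genes, and DESeq2 called 13, 8, 2, 9, 15 and 11. Limma-voom called 0, 2, 1, 28, 7 and 1, and no low-count filter gave 2, 2, 0, 6, 6 and 2. Fits of only the groups compared gave 0, 0, 0, 15 and 3 for the pairwise comparisons, and an adjusted p under 0.05 gave 0, 0, 0, 2, 3 and 1. The cause of these differences was not tested. Leaving out 1 library at a time gave 0 to 6, 0 to 3, 0 to 2, 1 to 5, 3 to 9 and 1 to 3 genes, so the lymphocyte counts depend strongly on the tool and the library. For MAMs, 109 genes were called, 94 to 104 with 1 library left out, 107 by DESeq2 and 114 by limma-voom. Slc30a1, Slc39a1 and Slc4a7, each changed by less than 0.4, lost their calls without some libraries (adjusted p up to 0.264).

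Replicate numbers were not taken to pair the libraries, since not every same-numbered pair correlated above 0.1: deviations of same-numbered libraries correlated at -0.0452 to 0.0981 in lymphocytes and -0.0145 to 0.172 in MAMs. Some genes were nonetheless shared by number, such as Hbb-bs, at 16.9 and 38.4 CPM in the MAM libraries numbered 3 and at most 1.87 CPM in the others. Among lymphocytes, Junb in replicates 1 to 3 was 1779, 585 and 3175 CPM in LM CD49a- NK and 1919, 757 and 2746 CPM in LM CD49a+ NK. Nr4a1 was 2049, 542 and 3145 CPM against 845, 222 and 3007 CPM in the same order. These are single genes picked as examples, so some pairing of the LM libraries by number remains possible. With the replicate number as a block, 1, 1, 0, 4, 4 and 1 lymphocyte genes and 110.0 MAM genes were called. The block ended the calls of Slc41a2 in MFL ILC1 against MFL NK (adjusted p = 0.108) and of Slc37a2 in LM CD49a+ NK against MFL ILC1 (adjusted p = 0.135). Of 545 values of the called genes named by the rule under the alternatives, 484 stayed called and 0 reversed. For lymphocytes 170 of 215 stayed called, and for MAMs 314 of 330. The lymphocyte values include fits that left out a library of a group outside the comparison.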
